A study of Mus musculus with 2 samples.

Results

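At 8 positions in the mouse genome, small RNA from embryonic lung was read almost wholly from the strand opposite the gene in the count tables. The 8 genes are Gm24321, Gm25301, Gm25927, Gm24083, Gm25252, Mir299b, Gm25750 and Gm24111, out of 1973 microRNA genes in the tables. The tables give gene identifiers only, and the names and positions used here come from GENCODE M21. There, Mir299b has the name of another microRNA and the others have those of predicted genes. Each of the 8 genes lies across from a better known microRNA on the other strand: Mir409, Mir378a, Mirlet7e, Mir191, Mir376a, Mir299a, Mir380 and Mirlet7f-1, in that order. None of these 8 facing microRNAs has a row of its own in the tables. The genes were chosen by their counts on the opposite strand in both libraries, so those counts are given below as a description, with no test.

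The data come from whole lung of mouse embryos of strain B6NCrl at embryonic day 15.5, healthy and of both sexes. Small RNA was sequenced as 2 libraries of 1 group, with inserts under 30 nt. Replicate 1 pooled the lungs of 78 embryos and replicate 2 those of 62, and both pools carry 1 donor identifier. There is no second condition, so the data give levels and their spread between pools, and pooling hides differences between single embryos. In whole tissue, fewer cells of a type and less RNA per cell cannot be told apart.

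A microRNA starts as a hairpin folded from 1 strand of a longer transcript. Drosha and Dicer cut the hairpin to a duplex, and 1 arm, named 5p or 3p by its side of the hairpin, is loaded into Argonaute. The loaded arm recognises target mRNAs mainly through its seed, bases 2 to 8 from the 5′ end. A hairpin's reverse complement can often fold as well, but it usually carries other seeds and counts as another gene. A read's strand therefore usually decides which microRNA it belongs to, and Mir299b below is an exception. A count per gene does not separate the arms, so the levels below are sums over both.

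The mature sequences that the opposite-strand reads would stand for are shown first, since the tabulated genes lie on the other strand. Mir378a, which faces Gm25301, was not in the RefSeq set used here (GRCm38.p6). That set held the other 7 facing microRNAs, with 14 mature sequences of 21 to 23 bases. They are written 5′ to 3′ with the seed in capitals.

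miR-409-5p: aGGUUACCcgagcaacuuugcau
miR-409-3p: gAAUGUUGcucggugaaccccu
let-7e-5p: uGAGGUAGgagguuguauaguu
let-7e-3p: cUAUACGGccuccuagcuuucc
miR-191-5p: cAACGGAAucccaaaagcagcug
miR-191-3p: gCUGCACUuggauuucguuccc
miR-376a-5p: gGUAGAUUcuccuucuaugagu
miR-376a-3p: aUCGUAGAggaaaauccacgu
miR-299a-5p: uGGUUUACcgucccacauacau
miR-299a-3p: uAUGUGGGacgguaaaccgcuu
miR-380-5p: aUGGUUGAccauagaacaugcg
miR-380-3p: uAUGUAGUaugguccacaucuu
let-7f-5p: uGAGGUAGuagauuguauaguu
let-7f-1-3p: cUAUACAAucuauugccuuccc

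The 14 sequences carried 13 different seeds. The seed shared within the set was GAGGUAG, the let-7 seed, in let-7e-5p and let-7f-5p. Those sequences differed by G9U and G12A, with the base of let-7e-5p first and positions counted from its 5′ end, so both differences lie outside the seed. One of the 14, let-7f-5p, is also found whole in another hairpin, that of Mirlet7f-2. The other 13 occur whole in no other mouse hairpin of the RefSeq set used. The tables keep reads with several mapping places apart from the genes, so reads of let-7f-5p could be missing from Gm24111.

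All 8 pairs overlapped by at least 49 bp in mm10. For 7 pairs the facing microRNA lay wholly inside the table gene, and Mir299b was the exception, 49 bp long inside the 63 bp of Mir299a. Gm24321 (chromosome 12, 109743158 to 109743237, minus strand) covered Mir409 almost base for base, with 1 bp to spare. Mir409 itself lies on the plus strand in an intron of Mirg, a long noncoding RNA gene of the imprinted Dlk1-Dio3 region. Gm25252 (109723756 to 109723875), Mir299b (109710645 to 109710693) and Gm25750 (109711779 to 109711890) lie on the minus strand of the same chromosome, opposite Mir376a, Mir299a and Mir380, with no host gene annotated on either strand. Gm25927 (chromosome 17, 17830343 to 17830459, minus strand) faces Mirlet7e, which lies in an intron of Spaca6. Gm24083 (chromosome 9, 108568295 to 108568414, minus strand) faces Mir191, in an exon of the long noncoding gene 4833445I07Rik. Gm24111 (chromosome 13, 48537825 to 48537921, plus strand) faces Mirlet7f-1, in an exon of the long noncoding gene 6720427I07Rik. Gm25301 (chromosome 18, 61397813 to 61397925, plus strand) faces Mir378a, in an intron of Ppargc1b. No gene other than a microRNA contained any of the 8 table genes on their own strand.

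**Figure D1:**
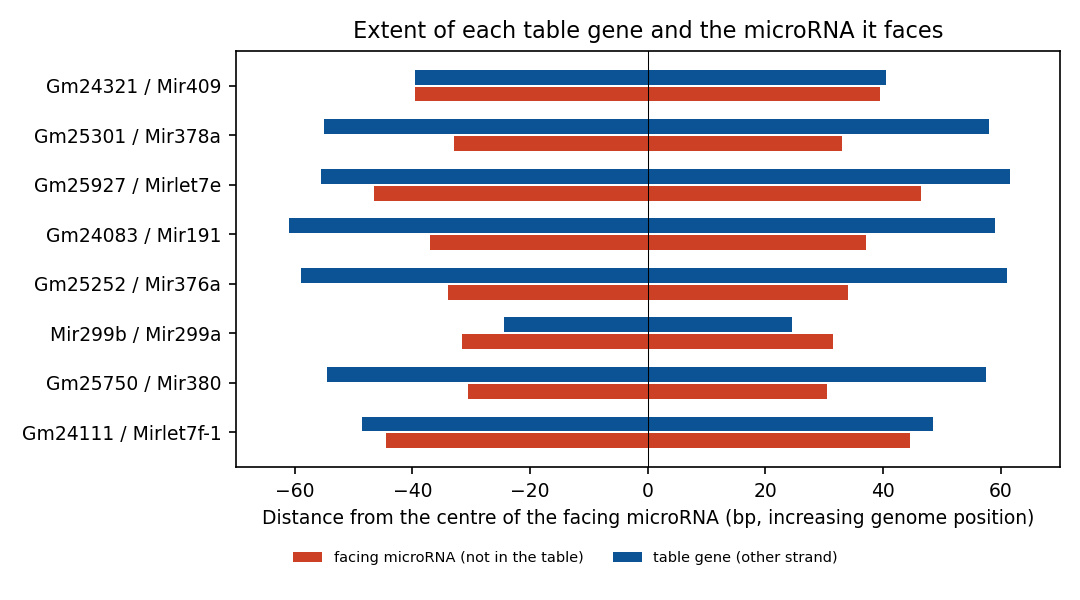
Extent of each table gene (blue) and of the microRNA it faces on the other strand (red), in bp from the centre of the facing microRNA, from GENCODE M21. The blue bar covers the red one in 7 pairs, and the Mir299b bar of 49 bp is shorter than the 63 bp of Mir299a.

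Counts on the annotated strand of the 8 genes were absent or few. In 6 of the 8 genes, Gm24321, Gm25301, Gm25927, Gm24083, Gm25252 and Gm25750, the annotated strand had 0 reads in both libraries. Levels are in CPM, reads per 1000000 reads counted in genes without regard to strand. A count of 0 still allows a level of up to 0.544 CPM in the replicate 1 library and 0.449 CPM in that of replicate 2, the value of 3 counts. Mir299b had 21 and 27 annotated-strand reads in replicates 1 and 2, which were 0.201% and 0.192% of its reads. Gm24111 had 11 and 5, which were 0.855% and 0.312%. Of the 8 genes, Mir299b alone reached 10 annotated-strand counts in both libraries, against 18.1% of all table genes. Limits and intervals here cover counting error only, not variation between pools. The reads carry no recorded molecular identifiers, so amplified copies are counted as separate reads and the intervals may be too narrow.

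Mir299b is the gene whose strands read alike. RefSeq gives Mir299b these mature sequences, on the minus strand and with the seed in capitals, shown because they repeat those of Mir299a:

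miR-299b-5p: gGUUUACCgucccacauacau
miR-299b-3p: uAUGUGGGacgguaaacc

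All 21 bases of miR-299b-5p lie within miR-299a-5p, and all 18 bases of miR-299b-3p lie within miR-299a-3p. A read of these shared bases alone has a match on either strand of the same hairpin. Such a read could be counted as mapped to several places, and so be missing from both strands of Mir299b. In the other 6 hairpins with a sequence, the longest run that a mature sequence shares with its hairpin's other strand was 14 bases, in let-7f-5p. Runs were 9 bases in Mir409, 7 in Mirlet7e, Mir191 and Mir380, and 5 in Mir376a. The predicted folding energies of the strands also lay closest in Mir299a: -42.1 kcal/mol on its own strand and -42.3 on the strand of Mir299b. Of the 7 hairpins, 5 folded more stably on the strand of the known microRNA, for example Mirlet7f-1 at -43.1 against -29.2 kcal/mol, and Mir376a (-16.6 against -19.1 kcal/mol) did not. Mir376a and then Mirlet7e (-45.3 and -42.4 kcal/mol) came next in closeness, with 0 reads on the strands of Gm25252 and Gm25927. The energies lay furthest apart in Mirlet7f-1, where Gm24111 had 11 and 5 reads on its own strand. Any link between folding energy and reads was not tested.

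On the opposite strand each of the 8 genes had at least 1276 reads in each library. All 8 passed 10 opposite-strand counts in both libraries, where 0.811% of all table genes did, and all 8 had more opposite-strand than annotated-strand reads, where 0.507% did. The choice of genes used these counts, so nothing is read from either share. Levels were not divided by length, since a microRNA read spans the whole molecule.

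Of the 8 genes, 4 lie in the Mir379 to Mir410 block, a long run of microRNAs expressed from the maternal copy of the imprinted Dlk1-Dio3 region. Opposite Gm24321, on the strand of Mir409, replicate 1 had 35035 reads (6353 CPM) and replicate 2 had 41454 (6204 CPM). That gave 6278 ± 105 CPM (SD, n = 2), the highest mean of the 8 genes, with replicate 1 the higher library. Opposite Gm25252, on the strand of Mir376a, a microRNA whose transcript is a known target of adenosine-to-inosine editing, there were 12219 reads (2216 CPM) and 15134 reads (2265 CPM), or 2240 ± 35.0 CPM. Opposite Mir299b, on the strand of Mir299a, replicate 1 had 10442 reads (1893 CPM) and replicate 2 had 14027 (2099 CPM). Its level of 1996 ± 146 CPM had the widest relative spread of the 8, with an SD of 7.30% of the mean. Reads of the bases shared by the strands could be missing from that level and from ratios built on it. Opposite Gm25750, on the strand of Mir380, there were 3809 reads (691 CPM) and 5004 reads (749 CPM), or 720 ± 41.2 CPM. Both Mir299b and Gm25750 were higher in replicate 2 by more than counting error.

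The genes facing let-7 members differed widely in level. The let-7 family rises as tissues mature, is held back in early embryos by Lin28 proteins, and acts against growth-promoting mRNAs. Opposite Gm25927, on the strand of Mirlet7e, replicate 1 had 32065 reads (5814 CPM) and replicate 2 had 39337 (5887 CPM), or 5851 ± 51.9 CPM (SD, n = 2). Opposite Gm24111, on the strand of Mirlet7f-1, there were 1276 reads (231 CPM) and 1598 reads (239 CPM), or 235 ± 5.52 CPM, the lowest of the 8. Both genes were nearly level between the pools. The 5p arm of Mirlet7f-1 is the sequence shared with Mirlet7f-2, and the part of shared reads in the low value of Gm24111 was not tested.

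The remaining genes face microRNAs outside the imprinted block and the let-7 family. Opposite Gm25301, on the strand of Mir378a, a microRNA of the gene for the metabolic coactivator PGC-1 beta, replicate 1 had 34094 reads (6182 CPM) and replicate 2 had 41861 (6265 CPM). Its level of 6224 ± 58.8 CPM (SD, n = 2) was next to that of Gm24321. Opposite Gm24083, on the strand of Mir191, a microRNA found in most tissues, there were 14046 reads (2547 CPM) and 15959 reads (2389 CPM), or 2468 ± 112 CPM. Replicate 1 was the higher library for Gm24083 and Gm24321, and replicate 2 for the other 6.

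**Figure D2:**
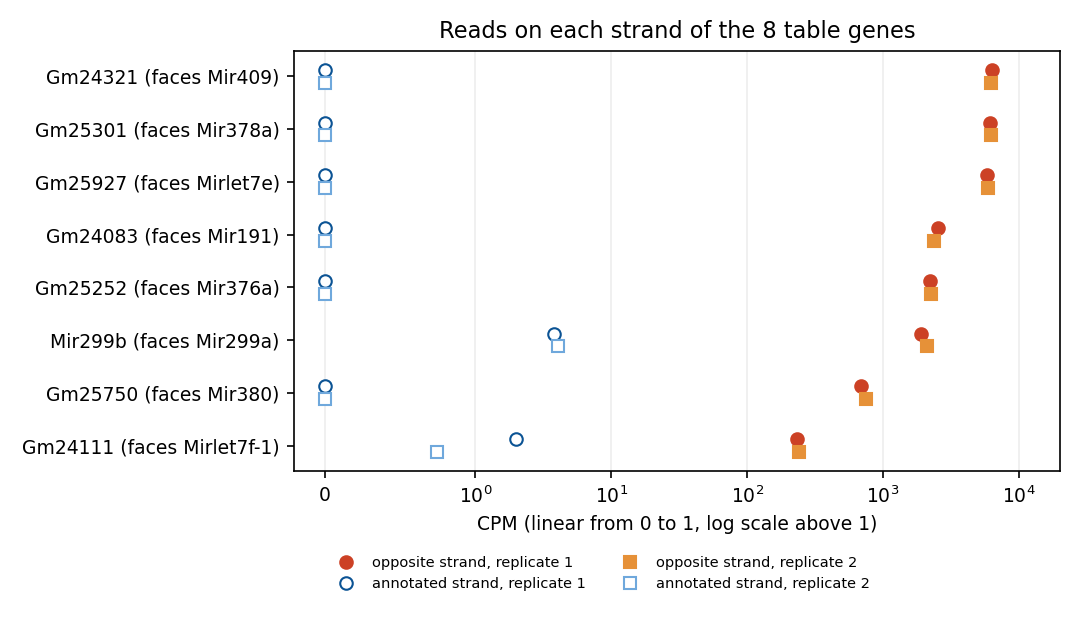
CPM on the opposite strand (filled) and the annotated strand (open) of the 8 genes, by replicate, on an axis that is linear from 0 to 1 and log above. The opposite-strand values run from 231 to 6353 CPM, and the annotated strand is at 0 in both libraries for 6 genes.

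In order of mean level the genes were Gm24321, Gm25301, Gm25927, Gm24083, Gm25252, Mir299b, Gm25750 and Gm24111, a span of 26.7-fold. The first place was not settled, since Gm24321 was higher than Gm25301 in replicate 1 and lower in replicate 2, with differences of 171 and -60.9 CPM and overlapping values. The other 6 neighbouring pairs had the same order in both libraries. Gm24083 exceeded Gm25252 by 227 CPM, 2.03 times the larger SD, and Gm25252 exceeded Mir299b by 244 CPM, 1.67 times the larger SD. The clear steps were from Gm25927 to Gm24083 (2.37-fold), from Mir299b to Gm25750 (2.77-fold) and from Gm25750 to Gm24111 (3.06-fold).

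Between the pools the 8 genes varied little. The log2 ratio of replicate 2 over replicate 1 ran from -0.09 for Gm24083 to 0.15 for Mir299b. Its 95% exact binomial interval was -0.13 to -0.06 for Gm24083 and 0.11 to 0.19 for Mir299b. For Gm25927 the ratio was 0.02, with an interval that holds 0 (-0.003 to 0.04). For 4 of the 8 genes, Gm24321, Gm24083, Mir299b and Gm25750, the interval left out equality, as it did for 44.8% of the 357 genes with at least 10 annotated-strand counts in both libraries. Which genes these were moved with the scaling. With TMM or DESeq2 factors the interval of Gm24321 held 0 (-0.03 to 0.01 with TMM), those of Gm25301, Gm25927 and Gm25252 left it out, and the count became 6 of the 8. The calls of Gm24083, Mir299b and Gm25750 stood under both. No gene of the 8 passed 1.5-fold between the libraries, where 9.80% of the 357 genes did. Replicate 2 was higher for 6 of the 8, against 51.0% of those 357 genes. The median size of the difference was 1.03-fold over the 8 and 1.10-fold over the 357, and the 8 have higher counts than most of them.

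Together the 8 genes held 142986 opposite-strand reads in replicate 1 and 174374 in replicate 2, beside 32 annotated-strand reads in each. That was 25926 and 26098 CPM, with a mean of 26012 ± 121 (SD, n = 2), or 2.60% of all gene counts. The spread depends on the scaling, with an SD of 390 CPM under TMM and 313 CPM under DESeq2 factors. Gm24321, Gm25301 and Gm25927 supplied 70.6% ± 0.307 of it. The 8 genes accounted for 89.0% of all opposite-strand gene reads in replicate 1 (95% exact binomial interval 88.9 to 89.2) and 90.7% in replicate 2 (90.6 to 90.9).

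How the strand is counted decides where these reads stand. In the column for the annotated strand, reads in no gene numbered 545448 in replicate 1 and 571279 in replicate 2, against 384876 and 379084 in the column without regard to strand. The differences, 160572 and 192195, equalled the opposite-strand totals read for read. The 8 genes alone made up 26.2% and 30.5% of the annotated-strand reads in no gene. For every one of the 1973 table genes, the strand columns summed to the column without regard to strand. A count without regard to strand therefore gives these reads to the identifiers of Gm24321 and the other genes. A count on the annotated strand gives those genes none or few of them.

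Opposite-strand reads beyond the 8 genes were few, apart from Mir497b and Mir142b. Mir497b faces Mir497 and had 9049 and 10699 opposite-strand reads in replicates 1 and 2, at 1621 ± 27.9 CPM (SD, n = 2), with 2 and 0 on its annotated strand. Mir142b faces Mir142, the microRNA of blood cells, and had 7944 and 6422, at 1201 ± 339 CPM, with 0 annotated-strand reads. By level both would stand between Mir299b and Gm25750, so level does not set them apart from the 8. Mir142b was lower in replicate 2 by a ratio of 0.667, a wider gap between the pools than any of the 8 showed. With both added, 10 genes held 99.6% of all opposite-strand reads in each library. Mir3074-1, across from Mir24-1, was read on both strands, with 532 and 684 annotated-strand and 350 and 440 opposite-strand reads, so that 39.7% and 39.1% were opposite. The sequence of Mir24-1 was not compared with other hairpins. Reads mapped to several places could be missing from either count, so the balance of the strands is uncertain. Mir203 and Mir126a followed at 7.97 ± 0.266 and 6.13 ± 2.10 CPM opposite. For Mir126a, the microRNA of endothelium, that was 0.0114% and 0.00713% of its reads. In all table genes other than those 10, opposite-strand reads were 0.0109% ± 0.000204 of the counts, a share that abundant genes dominate. By gene, 356 outside the 10 had at least 10 annotated-strand counts in both libraries, and in 344 of them the opposite strand held under 1% of the reads in each library. Most table genes had too few reads on either strand to say.

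**Figure D3:**
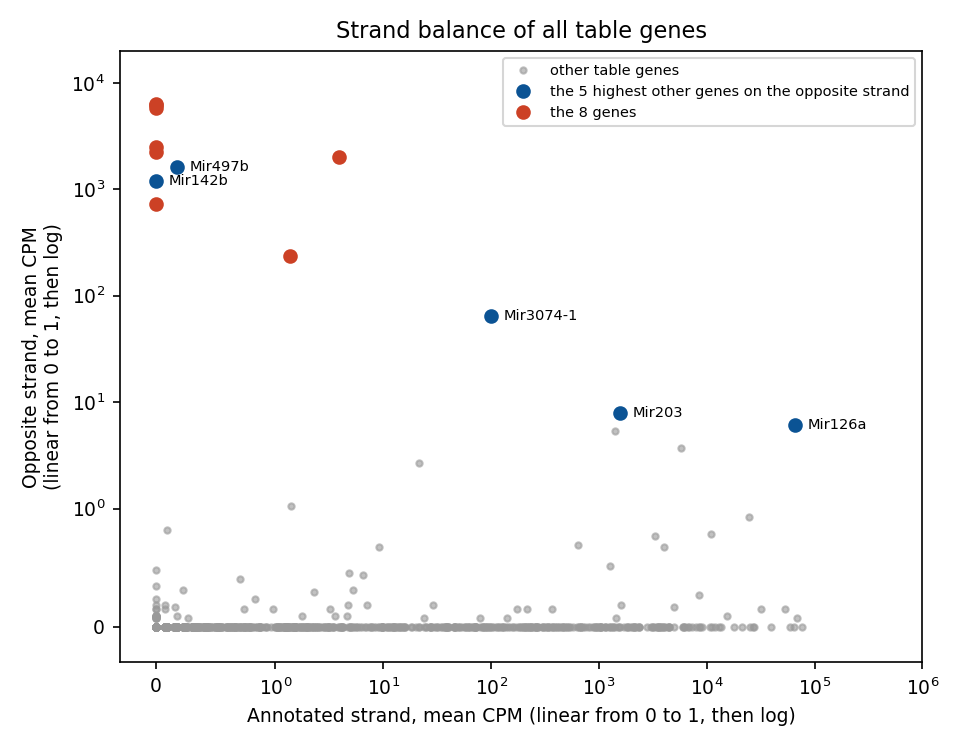
Mean CPM on the annotated strand (x) and the opposite strand (y) for each table gene, both axes linear from 0 to 1 and log above, with the 8 genes in red and the 5 next highest genes in blue. The red points, with Mir497b and Mir142b, lie at the upper left. Mir3074-1 stands apart at 99.4 CPM annotated and 64.7 CPM opposite, and no other gene exceeds the 7.97 CPM of Mir203 on the opposite strand.

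The 8 genes each face a microRNA without a row, which is not particular to them. They were chosen with the microRNA that each faces already known. Of 1894 table genes matched in GENCODE M21, 32 overlapped an annotated microRNA on the other strand, and in none of the 32 pairs were both genes in the table. Of the 32, 10 had more opposite-strand than annotated-strand reads with at least 10 in both libraries, namely the 8 genes with Mir497b and Mir142b. Among the 1862 matched genes that face no annotated microRNA, 0 did. The table does not always hold the quieter member of a pair. Mir126a, which faces Mir126b, had 368958 and 434794 annotated-strand reads, and Mir30e, which faces Mir30f, had 91334 and 96327. Mir451a, the erythroid microRNA that faces Mir451b, had 2385 and 3795 with 0 opposite. Gm25641, a hairpin with no annotated-strand reads that faces the neural microRNA Mir9-1, had 2 and 4 opposite-strand reads. The sequence of Mir9-1 was not compared with other hairpins, so reads mapped to several places could be missing here.

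Set among the genes counted on their annotated strand, the 8 would take places from 30 to 151. The 357 genes with at least 10 annotated-strand counts in both libraries had a median of 119 CPM, and 6 of the 8 exceeded 1000 CPM, as 95 of the 357 did. Gm24321, with 29 genes above it, stood between Mir30d (6653 ± 412 CPM) and Mir127 (6262 ± 165 CPM), a microRNA of the same imprinted region. Gm25301 stood between Mir127 and Mir106b (6130 ± 269 CPM), of a cluster linked to proliferation. The differences from Mir127 were smaller than its SD. Gm25927 stood between Mir487b (5956 ± 339 CPM) and Mirlet7b (5803 ± 286 CPM), within the SD of each. Gm24083 lay between Mir139 (2788 ± 213 CPM) and Mir149 (2343 ± 199 CPM), and Gm25252 between Mir455 (2327 ± 135 CPM), a microRNA of cartilage, and Mir27b (2194 ± 35.7 CPM). Mir299b lay between Mir484 (2042 ± 36.8 CPM) and Mir92b (1950 ± 62.8 CPM). Gm25750 lay between Mir676 (735 ± 62.3 CPM) and Mir433 (704 ± 37.6 CPM), and Gm24111 between Mir144 (236 ± 6.45 CPM) and Mir376c (234 ± 3.16 CPM). All values are mean ± SD over 2 libraries, and closeness in level is all they show.

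**Figure D4:**
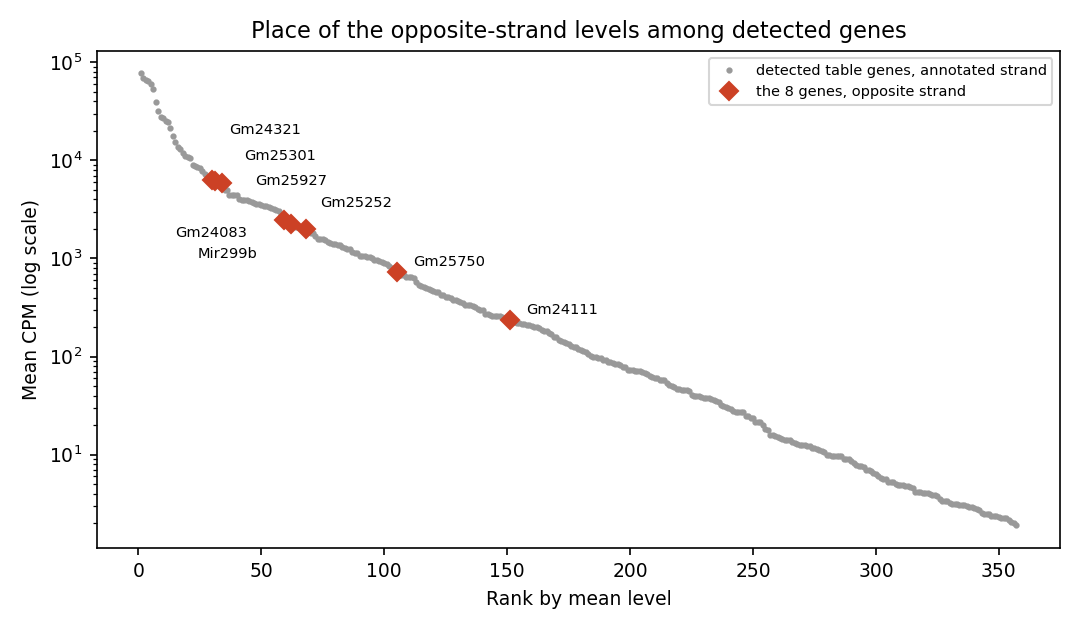
Mean CPM, on a log scale, by rank for the 357 genes with at least 10 annotated-strand counts in both libraries (grey). The opposite-strand means of the 8 genes (red) are at the places that each would take without the others. Gm24321, Gm25301 and Gm25927 sit at places 30, 31 and 34, and Gm24111 at 151.

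Within the Mir379 to Mir410 block, the 4 opposite-strand levels stood in the upper part. Of 38 microRNAs listed for the block, 32 were in the table and 28 of these reached 10 counts in both libraries, with a median over the 32 of 220 CPM. The 32 include Mir3072, which lies 38.8 kb from the start of Mir379, beyond Mir410 at 34.7 kb. Counted together with the 32, Mir409 (read opposite Gm24321) ranked 2 after Mir411 (8949 ± 68.9 CPM). Mir376a ranked 8, Mir299a ranked 9 and Mir380 ranked 14. The 4 added 11235 ± 117 CPM to 38365 ± 1077 CPM in the tabulated members, and so made up 22.7% ± 0.674 of the sum (SD, n = 2). Members of 1 family can cross-map, so shares within the block are uncertain.

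Set beside the nearest tabulated precursors of the block, the 4 levels differed by 1.78-fold to 122-fold where the neighbour had at least 10 counts in both libraries. Mir412, 52 bp beyond Mir409, had 307 and 318 reads (51.6 ± 5.71 CPM), and Gm24321 exceeded it by 122-fold (log2 6.93 ± 0.136, SD, n = 2). Mir541, 659 bp before Mir409, stood at 3530 ± 50.2 CPM, 1.78-fold lower than Gm24321 (log2 0.83 ± 0.0446). Mir300, 464 bp beyond Mir376a, was at 464 ± 17.1 CPM, and Gm25252 exceeded it by 4.82-fold, while Mir654, 479 bp before Mir376a, had 0 reads in both libraries. Mir411, 381 bp before Mir299a, exceeded Mir299b by 4.49-fold (log2 ratio of Mir299b over Mir411, -2.17 ± 0.116) and Gm25750 by 12.4-fold. Mir1197, beyond Mir380, had 6 and 13 reads.

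**Figure D5:**
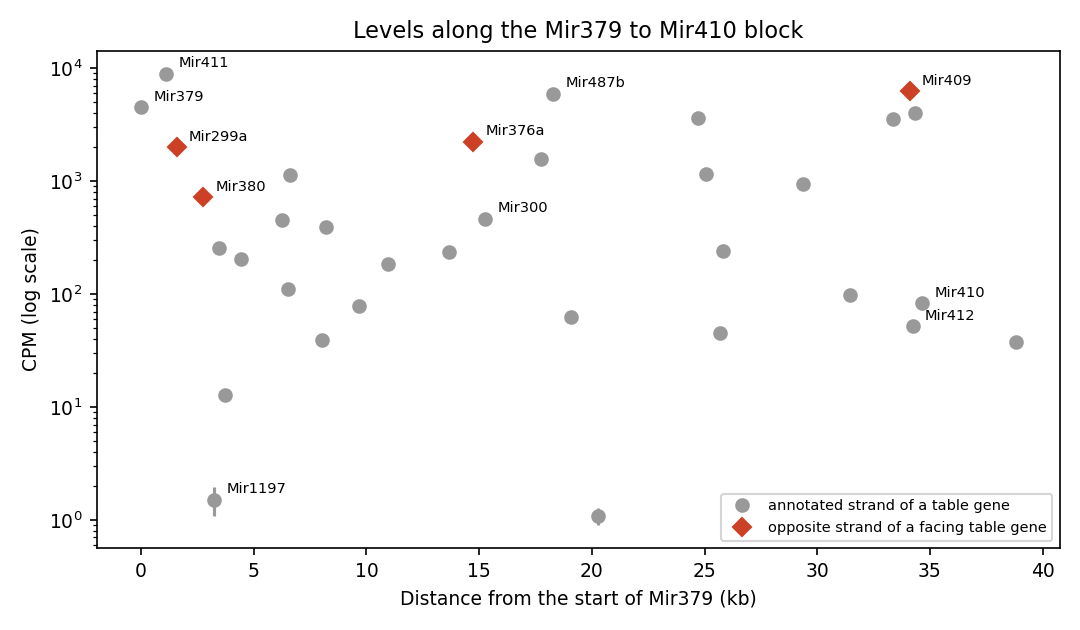
Mean CPM (log scale, bars from the lower to the higher library) by distance from the start of Mir379 in kb. Tabulated microRNAs listed for the block are grey, with Mir3072 beyond Mir410, and the 4 read opposite a table gene are red. Mir409 at 6278 CPM stands beside Mir412 at 51.6 CPM, and Mir654 and Mir453, with 0 reads, are not drawn.

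The other clusters placed the opposite-strand levels among named partners. Mir99b, 94 bp from Mirlet7e, stood at 17856 ± 192 CPM and exceeded Gm25927 by 3.05-fold (log2 ratio of Gm25927 over Mir99b, -1.61 ± 0.0283, SD, n = 2). Mir125a, 367 bp from Mirlet7e, was at 3440 ± 202 CPM, 1.70-fold below Gm25927. The 3 precursors of this cluster thus lay within 5.19-fold of each other. Mir425, 384 bp from Mir191, stood at 1596 ± 29.0 CPM, and Gm24083 exceeded it by 1.55-fold (log2 0.63 ± 0.0393). Mirlet7a-1, 261 bp from Mirlet7f-1, was at 319 ± 16.8 CPM, 1.35-fold above Gm24111, and Mirlet7d, 1714 bp away, at 21331 ± 736 CPM, exceeded Gm24111 by 90.7-fold. Mirlet7a-1 has a 5p sequence in common with Mirlet7a-2, so its count is uncertain in the way that of Gm24111 is.

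Listed relatives of Mir378a elsewhere in the genome had low counts. Mir378b had 14 and 12 reads in replicates 1 and 2, Mir378c had 64 and 53, and Mir378d had 53 and 78. Opposite Gm25301 the reads were 588-fold more than in Mir378d, the highest of the 3 at 10.6 ± 1.46 CPM (SD, n = 2). Reads that these relatives have in common with Mir378a would be on the line of reads mapped to several places.

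In the let-7 family, 10 of 12 listed members were in the table, and Mirlet7e and Mirlet7f-1 were read opposite Gm25927 and Gm24111. Their levels put Mirlet7e at rank 5 of the 12, between Mir98 (10855 ± 125 CPM) and Mirlet7b, and Mirlet7f-1 at rank 10, above Mirlet7c-2 (208 ± 27.0 CPM). Together they were 3.51% ± 0.0232 of the sum over the 12 (SD, n = 2), most of it Mirlet7e. The gene that shares let-7f-5p with Mirlet7f-1, Mirlet7f-2 on the X chromosome, was counted at 4052 ± 291 CPM, 17.2-fold above Gm24111. Mirlet7c-1 and Mirlet7c-2 likewise share let-7c-5p, and Mirlet7a-1 and Mirlet7a-2 share a 5p sequence. Reads of these shared sequences map to several places and could be missing from both genes of each pair. The ranks, the share and the ratio to Mirlet7f-2 are therefore uncertain.

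The tissue was checked against listed microRNAs. All 11 listed microRNAs of lung cell types were detected, from Mir34c at 572 CPM to Mir143 at 76999 CPM. They held 19.2% and 19.5% of annotated-strand counts in replicates 1 and 2. Most of this share came from Mir143 and Mir126a (65987 CPM), listed for smooth muscle with mesenchyme and for endothelium. Those cell types are not confined to lung, so the share alone does not identify the tissue. The 9 listed microRNAs of liver, muscle, blood and brain were also all detected but held 0.302% and 0.313%, with means up to 647 CPM for Mir223. Within that steady sum, single microRNAs of muscle, liver, brain and blood moved between the pools, and in opposite directions. Mir208b, of cardiac muscle, had 261 CPM in replicate 1 and 757 CPM in replicate 2, and Mir206, of skeletal muscle, had 52.6 and 152 CPM. Mir208a, also of cardiac muscle, had 556 and 248 CPM. Mir122, of liver, had 456 and 270 CPM. Of the brain microRNAs, Mir137 had 161 and 105 CPM, and Mir128-1 had 115 and 68.8 CPM. The erythroid Mir451a had 432 and 568 CPM, while Mir144 and Mir223 changed less. Mir142, read opposite Mir142b, was not on the list and stood above all 9 in mean level. The part of these differences in the levels of the 8 genes was not tested. The counts without regard to strand totalled 5515102 in replicate 1 and 6681585 in replicate 2, so 1 read equalled 0.181 and 0.150 CPM. Reads mapped to several places were 31.4% and 30.6% of all reads.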

How the data were processed

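Small RNA from 2 pools of embryonic mouse lung was measured. The authors deposited raw read counts per microRNA gene on assembly mm10 and annotation M4, per the file headers in each readme. No source used here names the aligner or the counter. Each table has 3 count columns (without regard to strand, annotated strand, opposite strand, as judged from their totals) and 4 summary lines, which were kept out of library sizes.

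CPM was computed per 1000000 counts without regard to strand, with means and SDs over 2 replicates. Positions and facing genes, with at least 1 shared base, came from GENCODE M21 (GRCm38, the same assembly as mm10), in which 1894 of 1973 identifiers matched without their version. Mature sequences came from RefSeq GRCm38.p6, in a set without Mir378a. Hairpins were folded with RNAfold 2.7.2 at 37 °C. Detected genes had 10 or more counts in each library. Ratios between libraries have 95% exact binomial intervals. No test between groups was possible with 1 group.

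Named genes were the 8, the detected genes next above and below each in level, listed neighbours, and the 5 other genes highest on the opposite strand. Others, such as Mir30e, Mir451a and Gm25641, were named after their values were seen. For genes of the block, the neighbours were the nearest tabulated block members on each side, a choice made with the data at hand. The members and lists were chosen with earlier results of these data known. Alternatives were other denominators, edgeR 4.0.16 TMM factors, DESeq2 1.42.0 size factors, other minimum counts and single libraries. The scripts were tested on simulated data. Analyses used Python 3.11.15, pandas 2.3.3, scipy 1.17.1 and R 4.3.3.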

Additional observations from a re-analysis of the deposited data

Results flagged for a closer look

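Reads opposite a gene that faces no microRNA in GENCODE M21 or the RefSeq set used were found above 10 counts in both libraries for Mirlet7b and Mir708. Mirlet7b had 29 and 14 opposite-strand reads in replicates 1 and 2, beside 33119 and 37421 on its annotated strand. Mir708 had 22 and 45, beside 7747 and 9334. The opposite-strand reads were 0.0875% and 0.0374% of the reads of Mirlet7b, and 0.283% and 0.480% of those of Mir708. Both genes came up because they reached 10 opposite-strand counts in both libraries without a facing microRNA. There was no control library to set these counts against.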

How the results depend on the processing

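None of 69 recomputed log2 ratios changed sign, a count that says little by itself. Ratios to neighbours were recomputed from nearly the same counts, or from the single libraries that make up the mean. A denominator scales all genes of a library alike and so cannot change their order within it. In replicate 2 alone, Gm25301 stood above Gm24321. The combined level of the 8 genes, 26012 CPM, was 26787 per 1000000 annotated-strand counts, 12709 per 1000000 of all reads, 28183 with Mir143 left out of the total, and 25926 to 26098 in single libraries. The share of opposite-strand reads, 89.9%, was 95.2% with Mir497b left out. With Mir497b and Mir142b added, an alternative chosen after seeing the data, these values were 28834 CPM and 99.6%. Genes with opposite-strand reads numbered 16 at a minimum of 10 counts and 34 at 1 count. TMM and DESeq2 size factors moved the combined level by less than its SD but widened that SD from 121 to 390 and 313 CPM, and the genes whose ratio between libraries left out equality went from 4 to 6 of the 8 under each. No paired analysis was possible because there is 1 group. Counts per gene do not separate the arms of a hairpin, nor mature microRNAs from other short RNA of the same strand. Which reads opposite a gene are mature microRNAs could not be seen here.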
